A study of Mus musculus with 9 samples.

Results

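The Hox genes of the HoxA, HoxB, HoxC and HoxD clusters were followed on mouse expression arrays of normal and MLL-AF9 leukemic myeloid progenitors. A probe set, the group of short probes that reads one transcript, was taken as a member when the platform annotation gave it a single gene symbol made of Hox, a cluster letter and a number. This rule used no measured value. It found 37 of the 22690 probe sets on the array, and they read 31 of the 39 protein-coding Hox genes that RefSeq lists in the mouse, out of 12394 genes named by a single symbol on the array. The HoxA cluster had 12 of these probe sets for 9 genes, HoxB 10 for 9, HoxC 8 for 6 and HoxD 7 for 7. The remaining Hox genes were not analysed here, and 3 probe sets that carry several Hox symbols were left out.

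The study asked whether the MLL-AF9 fusion turns committed progenitors into leukemia stem cells. GMP, the granulocyte-macrophage progenitors of normal bone marrow, gave 3 arrays. L-GMP, cells with the GMP surface phenotype sorted from leukemic bone marrow, gave another 3. The last 3 arrays have only a code in their titles, with L-GMP named as their source. They were read as L-GMP-derived cells, grown from L-GMP in culture, because the design text names 3 kinds of sample and the labels settle the other two; no label states it. The labels give no strain, no age and no way in which the fusion gene was delivered, and they do not say whether the arrays of a group come from different mice or cultures. The p-values therefore describe the spread among these arrays, and that spread may be technical.

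Hox proteins are homeodomain transcription factors that set position along the body axis. Their genes lie in clusters, in which the number of a gene gives its place, and genes of the same number in different clusters are paralogs. In blood formation, HoxA and HoxB genes of the middle of the clusters are active in stem and early progenitor cells and are shut down as cells mature. The MLL protein keeps Hox genes active through histone methylation, and fusions of MLL with partners such as AF9 bring factors of transcription elongation to MLL targets. MLL fusions keep a CXXC domain that binds DNA in which the CpG dinucleotide is unmethylated, and Hoxa9 with its partner Meis1 is the textbook target pair of MLL-fusion leukemia.

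The start regions of the HoxA genes that differed most between the groups show how unlike their CpG content is. Each line gives the 250 bases before a transcription start in RefSeq (mouse build GRCm38.p6), read 5′ to 3′ on the minus strand, with each CpG dinucleotide in capitals; Hoxa10 has 2 starts in the table. The regions are chr6:52204588-52204837 for Hoxa5, chr6:52227371-52227620 for Hoxa9, chr6:52234940-52235189 and chr6:52240855-52241104 for the downstream and upstream starts of Hoxa10 and chr6:52245811-52246060 for Hoxa11.
Hoxa5: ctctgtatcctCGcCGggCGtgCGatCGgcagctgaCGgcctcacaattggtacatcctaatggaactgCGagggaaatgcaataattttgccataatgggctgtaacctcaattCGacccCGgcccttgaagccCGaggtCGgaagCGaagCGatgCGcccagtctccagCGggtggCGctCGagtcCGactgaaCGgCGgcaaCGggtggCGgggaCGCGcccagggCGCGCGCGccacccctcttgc
Hoxa9: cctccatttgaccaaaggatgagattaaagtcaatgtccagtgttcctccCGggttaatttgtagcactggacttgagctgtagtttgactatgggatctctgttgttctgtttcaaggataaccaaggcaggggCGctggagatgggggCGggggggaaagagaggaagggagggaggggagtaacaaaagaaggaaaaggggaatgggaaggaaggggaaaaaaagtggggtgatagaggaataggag
Hoxa10 downstream start: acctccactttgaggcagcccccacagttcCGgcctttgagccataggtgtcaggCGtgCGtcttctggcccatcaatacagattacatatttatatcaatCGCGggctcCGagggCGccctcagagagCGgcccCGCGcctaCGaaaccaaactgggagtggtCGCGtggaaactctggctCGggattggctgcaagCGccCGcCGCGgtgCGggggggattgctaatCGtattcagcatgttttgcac
Hoxa10 upstream start: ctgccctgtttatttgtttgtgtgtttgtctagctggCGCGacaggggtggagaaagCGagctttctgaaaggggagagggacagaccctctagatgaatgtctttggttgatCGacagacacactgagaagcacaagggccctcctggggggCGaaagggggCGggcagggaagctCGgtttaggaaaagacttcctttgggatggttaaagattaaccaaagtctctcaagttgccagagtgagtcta
Hoxa11: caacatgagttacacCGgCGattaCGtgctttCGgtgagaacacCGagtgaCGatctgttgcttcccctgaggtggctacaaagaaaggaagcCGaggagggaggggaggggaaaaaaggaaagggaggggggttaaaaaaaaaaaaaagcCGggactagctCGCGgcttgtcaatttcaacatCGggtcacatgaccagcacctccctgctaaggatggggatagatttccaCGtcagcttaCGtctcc

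The Hoxa5 region holds 28 CpG dinucleotides, and 7.61% of all 32851 RefSeq promoter windows of this length hold as many or more. The Hoxa9 region holds 3, a number that 71.0% of the windows reach. The Hoxa10 regions hold 20 and 7, and the Hoxa11 region holds 13. Over the 24 Hox windows in the table, for 22 genes, the median was 12.5, against 6 over all windows, and the 10 HoxA windows had a median of 15.5. On either strand, the CCAAT box was found in 14 of the 24 Hox windows (58.3%, against 33.8% of all windows) and TATAAA in 4 (16.7% against 12.4%). TGACAG, a core bound by Meis proteins, was found in 2 Hox windows (8.33% against 15.9%), and TGATNNAT, a joint Hox and Pbx motif, in 4 (16.7% against 7.68%). Of the regions printed above, Hoxa5 held CCAAT, the Hoxa10 region with 20 CpG held CCAAT and TATAAA, and the other 3 held no match to these 4 motifs. A match is only a run of letters, and no match says nothing about a factor.

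A signal is the brightness of a probe set on a linear scale. Some deposited signals are below 0, and the levels of different probe sets cannot be compared with each other. Before log2 was taken, any signal under 62.4 (the 25th percentile of the whole table) was raised to that floor. A probe set entered the test when 3 or more of the 9 arrays read over 111 (the 40th percentile), which left 14578. A difference was called at an adjusted p under 0.05 in limma, with Benjamini-Hochberg adjustment over all tested probe sets of the comparison. Every adjusted p below comes from that fit, errors of signals are SDs over 3 arrays, and folds are written "at least" where the lower group had arrays under the floor. The number of arrays limits the precision.

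The 9 arrays had trimmed mean signals within 4.02% of their mean. Over all tested probe sets, arrays of the same group correlated at 0.958 to 0.991 and arrays of different groups at 0.898 to 0.928, with replicate 1 of the L-GMP-derived arrays apart from the other two in several genes below. Of the 7 tested GMP markers, 1 rose (Fcgr3) and 2 fell (Ctsg and Cd34) in L-GMP against GMP, 3 fell in L-GMP-derived cells against GMP (Mpo, Kit and Cd34), and between the leukemic groups 1 was higher in L-GMP-derived cells (Ctsg) and 4 were lower (Mpo, Kit, Cd34 and Fcgr3). The granule protease genes Elane and Prtn3 did not pass in any comparison (group means of 6162 to 6734 and of 7475 to 7908). Mpo, the granule peroxidase, ran from 9224 to 9476 in GMP, 4647 to 6806 in L-GMP and 319 to 3581 in L-GMP-derived cells, 11.9-fold lower in the last than in GMP (adjusted p = 0.00407). The progenitor receptor Kit read 816 ± 41.7 in GMP, 657 ± 99.4 in L-GMP and 93.9 ± 23.5 in L-GMP-derived cells, and Cd34 read 568 ± 68.9, 306 ± 124 and 36.4 ± 18.5. The summed signal of 8 stem and multipotent cell markers ran from 1331 to 1400 in GMP, 889 to 1586 in L-GMP and 288 to 390.3 in L-GMP-derived cells. Of the 4 that could be tested, Hlf and Tal1 fell in L-GMP against GMP, and all 4 (also Gata2 and Mecom) fell in L-GMP-derived cells against GMP; the Mecom call ended whichever array was left out. Among these 4, only Gata2 was called between the leukemic groups, lower in L-GMP-derived cells (adjusted p = 9.14e-06). Procr, Flt3, Slamf1 and Gfi1b were too dim to test. The summed signal of 7 macrophage markers ran from 6175 to 7224, 8381 to 9741 and 1768 to 2581; Mrc1 and Marco stayed below 111 in every group mean and Csf1r gave most of the sum in GMP. Of the 4 tested macrophage markers, 3 rose in L-GMP against GMP (Adgre1, Cd68 and C1qb). In L-GMP-derived cells against GMP, Adgre1 (adjusted p = 0.0329) and Cd68 (adjusted p = 0.000261) rose and Csf1r fell 11.5-fold (adjusted p = 4e-06), so the lower sum there follows Csf1r and not the other members; against L-GMP, Adgre1, Cd68 and Csf1r were lower. Of the tested erythroid and megakaryocyte, B cell, T and NK cell, and stromal markers (13 in all), 1 rose in L-GMP against GMP, Pdgfrb, and 3 fell in L-GMP-derived cells against GMP, Itga2b, Cd79b and Pdgfrb; the Cd79b call was lost with L-GMP-derived replicate 3 left out (adjusted p = 0.0511). Between the leukemic groups, 4 of these 13 were lower in L-GMP-derived cells (Itga2b, Cd79b, Cd3e and Pdgfrb) and 0 higher. The Cd3e call was lost with L-GMP-derived replicate 3 left out (adjusted p = 0.0502). The part of these other cell types in the Hox results was not tested. Over all tested probe sets, 13.4% were called higher and 12.6% lower in L-GMP against GMP. For L-GMP-derived cells these shares were 14.0% and 10.4% against GMP, and 16.4% and 13.5% against L-GMP.

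RNA quality was read from the Actb controls, as the signal at the 3′ end over that at the 5′ end. It was 7.37 ± 0.648 in GMP, 5.17 ± 0.355 in L-GMP and 7.10 ± 0.140 in L-GMP-derived cells. L-GMP did not overlap with either other group (exact two-sided permutation p = 0.1 for each, the smallest that 3 against 3 arrays allow), while L-GMP-derived cells and GMP did (exact p = 0.8). The same ratio for Gapdh was 7.86 ± 0.855, 8.09 ± 3.05 and 7.21 ± 1.78, with exact p from 0.6 to 1. The signal at the 3′ end over that in the middle of the transcript set GMP apart from both leukemic groups. For Actb it was 4.23 ± 0.537 in GMP, 2.26 ± 0.291 in L-GMP and 3.01 ± 0.170 in L-GMP-derived cells (exact p = 0.1 for every pair), and for Gapdh 2.13 ± 0.101, 1.85 ± 0.0493 and 1.86 ± 0.132 (exact p = 0.1 for GMP against each leukemic group and 0.9 between these). The part of RNA quality in the Hox results was not tested. Since fewer cells of a type and less RNA per cell give the same reading in a bulk sample, a lower signal below can stand for either.

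Of the 37 Hox probe sets, 20 passed the filter and were tested. They read 16 genes, with 7 probe sets in HoxA, 6 in HoxB, 5 in HoxC and 2 in HoxD. The others, 17 probe sets, were too dim, and their signals ran from 3.07 to 142 on single arrays. The number of Hox probe sets above the filter was 16 or 17 on each GMP array, 18 or 19 on each L-GMP array and 19 on each L-GMP-derived array. The share of all probe sets above the filter on each array was not counted, so these numbers are a description. Hoxa11 passed the filter through the L-GMP-derived arrays alone and Hoxa10 through the leukemic arrays alone, so the difference of both from GMP, and that of Hoxa11 from L-GMP, is built into their being tested, and counts over the tested probe sets are a description. Of the 20, 14 were above the filter on all 9 arrays.

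Against GMP, 5 Hox probe sets rose in L-GMP and 1 fell, and all 5 that rose lie in the HoxA cluster (Hoxa5, Hoxa7, Hoxa10 and both probe sets of Hoxa9). Of all tested probe sets, 13.4% were called higher and 12.6% lower in this comparison, against 25% and 5.0% of the Hox probe sets. In L-GMP-derived cells against GMP, 6 rose and 0 fell (Hoxa3, Hoxa5, Hoxa10, Hoxa11 and both Hoxa9 probe sets). Of all tested probe sets, 14.0% were called higher and 10.4% lower there. Between the leukemic groups, 3 were higher in L-GMP-derived cells (Hoxa3, Hoxa11 and a Hoxb4 probe set) and 1 was lower (Hoxb3), where 16.4% and 13.5% of all tested probe sets were. The Hox shares of 15.0% and 5.0% are at or under the background. At an unadjusted limma p under 0.05, 5 Hox probe sets were higher and 1 lower in L-GMP against GMP. These unadjusted counts were 9 and 1 in L-GMP-derived cells against GMP, and 4 and 1 between the leukemic groups. The share of all tested probe sets at that threshold was not counted, so the unadjusted counts have no background beside them. The 3 comparisons use the same arrays in pairs and are not independent of each other.

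The medians of the clusters are a description of the tested probe sets alone. The 7 in HoxA include both Hoxa9 probe sets, and Hoxa10 and Hoxa11, which passed the filter through leukemic arrays alone. Dim probe sets are left out, and the HoxD median rests on 2 probe sets. The median log2 difference of the tested probe sets, L-GMP minus GMP, was 1.53 in HoxA, 0.19 in HoxB, 0.04 in HoxC and 0.13 in HoxD, beside -0.0032 over all tested probe sets. In L-GMP-derived cells against GMP it was 1.82, -0.08, -0.06 and 0.20, beside 0.0102. Between the leukemic groups, L-GMP-derived minus L-GMP, it was 0.29, -0.13, -0.05 and 0.06, beside -0.0013. No HoxC or HoxD probe set was called in any of the 3 comparisons in limma. Without adjustment, 1 HoxC probe set (Hoxc5) and 1 HoxD probe set (Hoxd11) were higher in L-GMP-derived cells than in GMP at p under 0.05, and 0 in the other comparisons.

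**Figure D1:**
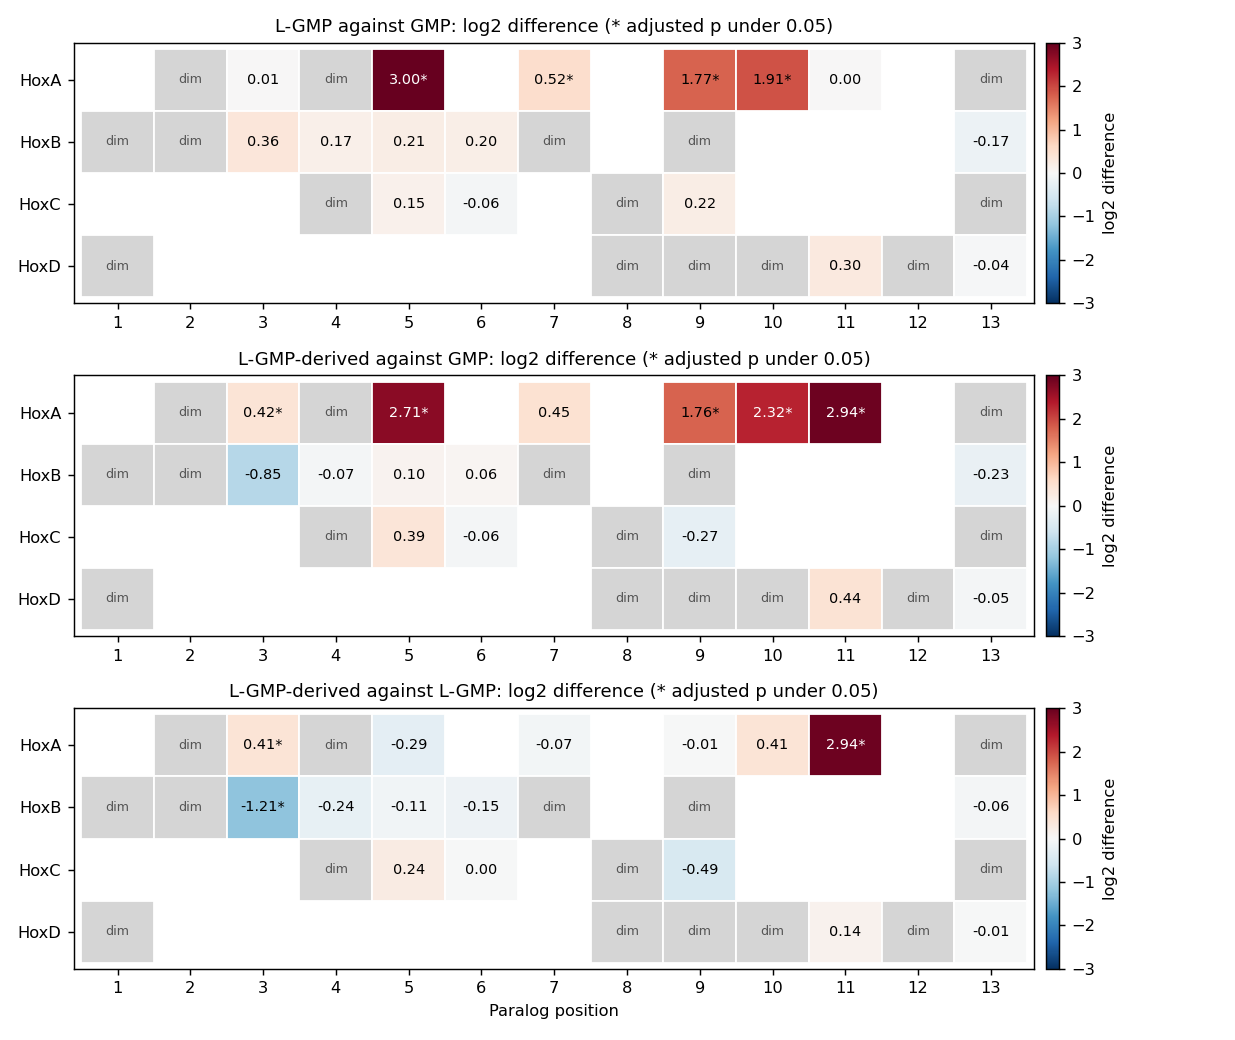
Log2 difference of Hox genes by cluster (rows) and paralog position (columns) in the 3 comparisons, the brightest probe set of a gene taken for each; "dim" cells had no probe set above the filter. Blank cells have no gene or one not analysed here, and asterisks mark adjusted p under 0.05. The differences from GMP over 1.5 on the log2 scale lie at positions 5, 9, 10 and, for L-GMP-derived cells, 11 of the HoxA row; for Hoxb4 the grid shows 1460379_at, not the probe set that was called.

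Hoxa5, a middle HoxA gene that is active in immature blood cells, was higher in both leukemic groups. Its signals were 274, 353 and 339 on the GMP arrays, 2565, 2609 and 2511 on the L-GMP arrays, and 3237, 1622 and 1746 on the L-GMP-derived arrays. Every leukemic array was above every GMP array, and replicate 1 of the L-GMP-derived cells stood above the other two. L-GMP was 8.0-fold higher than GMP (log2 difference 3.0 ± 0.22 SE, adjusted p = 7.91e-06), and L-GMP-derived cells were 6.54-fold higher (2.71 ± 0.22, adjusted p = 1.57e-05). Between the leukemic groups the log2 difference was -0.29 (95% interval -0.79 to 0.21, adjusted p = 0.371). Without replicate 1 of the L-GMP-derived cells it was -0.61 and passed the threshold (adjusted p = 0.00291), so this array decides that comparison.

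Hoxa9, whose protein with Meis1 drives self-renewal of myeloid progenitors, was read by a pair of probe sets, and both rose. On the brighter, 1455626_at, the GMP arrays read 1394, 1745 and 1658, the L-GMP arrays 5617, 5312 and 5369, and the L-GMP-derived arrays 6003, 5108 and 5139. On 1421579_at the GMP arrays read 226, 241 and 214, the L-GMP arrays 792, 590.4 and 602, and the L-GMP-derived arrays 971, 697 and 763. The GMP arrays lay below all leukemic arrays on both probe sets, and the leukemic groups overlapped on both. L-GMP was 3.41-fold (1455626_at, adjusted p = 5.06e-07) and 2.89-fold (1421579_at, adjusted p = 7.58e-05) above GMP. L-GMP-derived cells were 3.39-fold (adjusted p = 5.65e-07) and 3.54-fold (adjusted p = 2.38e-05) above it. Between the leukemic groups, the log2 difference was -0.01 (95% interval -0.21 to 0.19) on 1455626_at and 0.29 (95% interval -0.06 to 0.64) on 1421579_at. Neither passed the threshold (adjusted p = 0.964 and 0.203). GMP itself was well above the filter on 1455626_at.

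Hoxa10, the neighbour of Hoxa9 toward the posterior end and a gene whose overexpression blocks myeloid maturation, was under the floor in normal progenitors. Its signals were 21.2, 24.2 and 21.8 in GMP, 274, 229 and 205 in L-GMP, and 276, 359.6 and 303 in L-GMP-derived cells. The GMP arrays were far below the leukemic ones, and each L-GMP-derived array was above each L-GMP array. L-GMP was at least 3.75-fold above GMP (adjusted p = 9.19e-06) and L-GMP-derived cells at least 4.98-fold (adjusted p = 2.26e-06). These bounds rest on the floor, and over the other floors tried they ran from 2.10 to 8.33-fold and from 2.79 to 11.1-fold. The step from L-GMP to L-GMP-derived cells was 1.33-fold and missed the threshold (adjusted p = 0.0565). It passed under 5 other settings, among them without L-GMP replicate 1 (adjusted p = 0.0288) and without L-GMP-derived replicate 1 (adjusted p = 0.0285).

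Hoxa11, a posterior HoxA gene known for its role in limb and kidney, was read in the cultured cells alone. Its signals were -28.4, -56.7 and -27.8 in GMP, 5.34, -5.59 and -26.8 in L-GMP, and 317, 581 and 592 in L-GMP-derived cells. All 6 arrays of the sorted marrow cells were under the floor, and all 3 L-GMP-derived arrays were above the filter. L-GMP-derived cells were at least 7.65-fold above GMP (adjusted p = 6.81e-06) and at least 7.65-fold above L-GMP (adjusted p = 7.58e-06), the same bound because both are at the floor. As these 3 arrays alone brought Hoxa11 into the test, both differences are built in and are a description. L-GMP against GMP gives no fold, since all 6 arrays were under the floor. The bound was 4.29-fold with the highest floor and 17.0-fold with the lowest. Without L-GMP-derived replicate 1, the dimmest of its group, it was 9.39-fold, and without replicate 3 it was 6.88-fold.

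**Figure D2:**
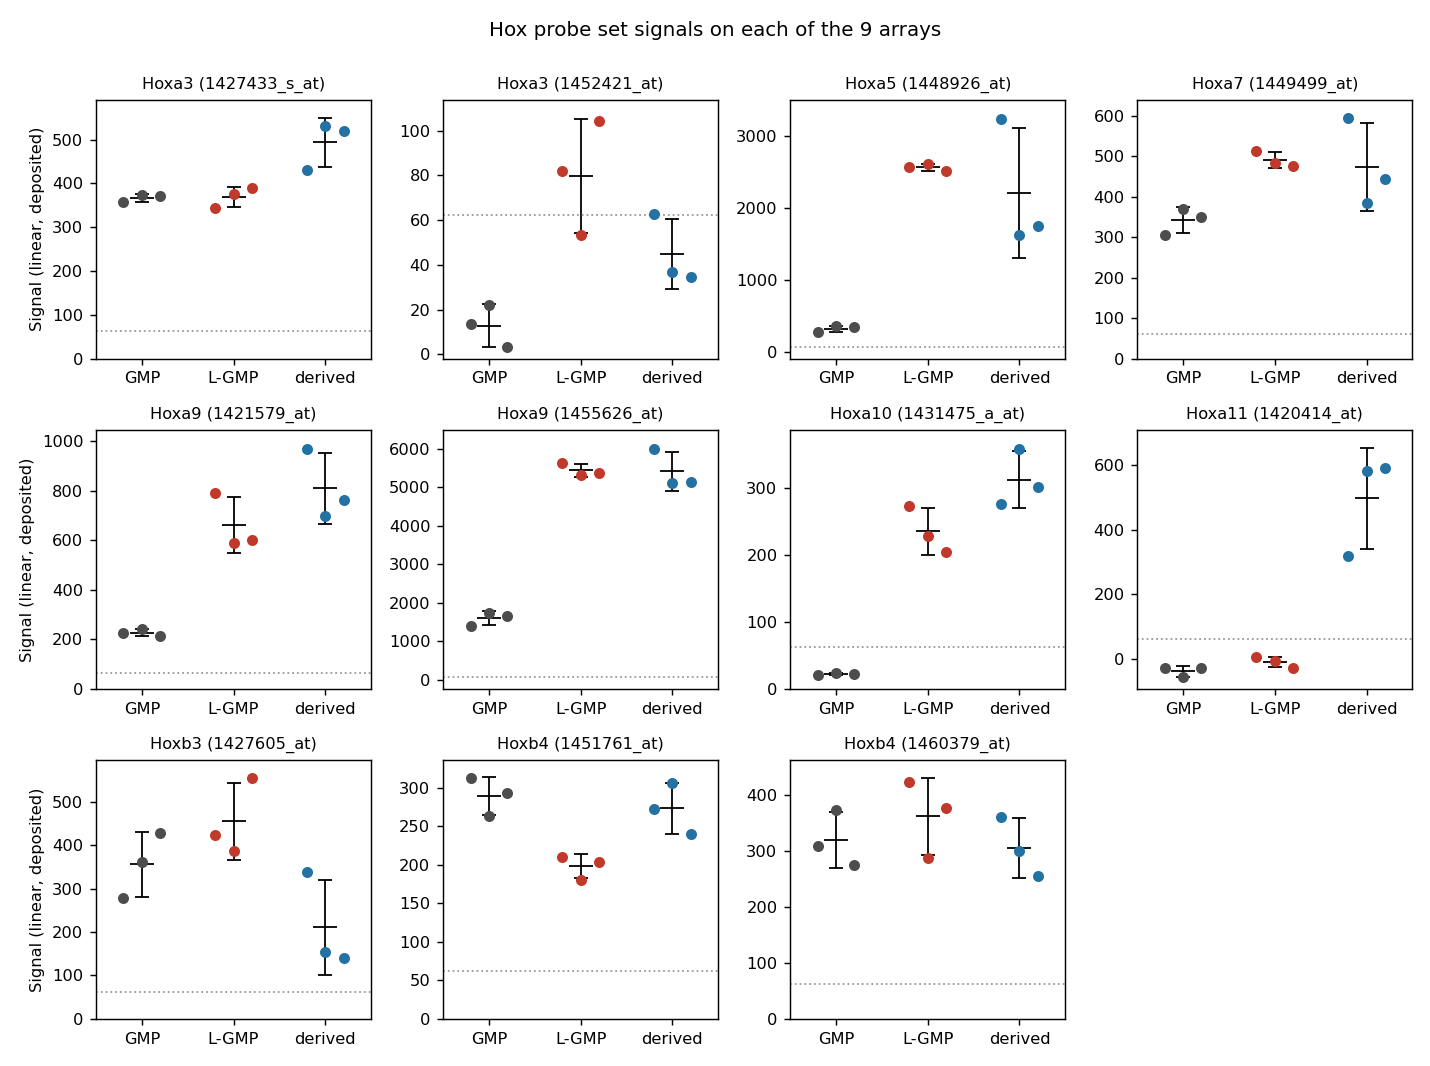
Signal on each array (points, linear axis of its own in each panel), with the group mean and SD (n = 3, bars) and the floor of 62.4 (dotted line), for the probe sets of Hoxa3, Hoxa5, Hoxa7, Hoxa9, Hoxa10, Hoxa11, Hoxb3 and Hoxb4 in GMP, L-GMP and L-GMP-derived ("derived") cells. Hoxa5, Hoxa9 and Hoxa10 are high on all 6 leukemic arrays, and Hoxa11 is above the floor on the 3 L-GMP-derived arrays alone.

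Hoxa7, between Hoxa5 and Hoxa9 and also a gene that MLL regulates, changed less. GMP arrays read 307, 370.4 and 351, L-GMP arrays 513, 483 and 476, and L-GMP-derived arrays 595, 384 and 443. The groups did not overlap between GMP and either leukemic group, and L-GMP and L-GMP-derived cells did. L-GMP was 1.44-fold above GMP (log2 difference 0.52 ± 0.16, adjusted p = 0.0354), a call that was lost when any of the 6 GMP and L-GMP arrays was left out (adjusted p from 0.0616 to 0.119). In L-GMP-derived cells the difference from GMP was 1.36-fold and missed the threshold (adjusted p = 0.0662); without L-GMP-derived replicate 2 it passed (adjusted p = 0.0281).

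Hoxa3, an anterior gene, was read by a bright probe set, 1427433_s_at, and a dim one. The bright probe set read 358, 373 and 371 in GMP, 344, 376 and 389 in L-GMP, and 430.1, 532 and 519 in L-GMP-derived cells. The L-GMP-derived arrays were above all others and L-GMP and GMP overlapped. L-GMP-derived cells were 1.34-fold above GMP (adjusted p = 0.0264) and 1.33-fold above L-GMP (adjusted p = 0.0238). Leaving out L-GMP-derived replicate 2 or 3 ended both calls (adjusted p from 0.0794 to 0.0903). Leaving out any GMP array ended the call against GMP (0.0732 to 0.078), and leaving out L-GMP replicate 1 or 2 ended that against L-GMP (0.074 and 0.0572). The dim probe set, 1452421_at, read 13.5, 21.9 and 3.07 in GMP, 81.8, 53.4 and 104 in L-GMP, and 62.7, 36.7 and 34.5 in L-GMP-derived cells. It stayed under the filter on all arrays, and its order of the groups was not that of the bright probe set. In RefSeq the Hoxa3 locus overlaps Hoxa4, Hoxa5 and Hoxa6, so reads of the bright probe set, whose name ends in _s_at because its probes match several transcripts, cannot be tied to Hoxa3 with certainty.

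The remaining HoxA genes lay at the ends of the cluster or next to Hoxa5 and were dim. Hoxa2 read 63.8 to 87.5 over the 9 arrays and Hoxa13, the most posterior gene, 34.1 to 70.1. The Hoxa4 probe sets read 8.82 to 37.6 and 33.9 to 140.4. None of these was above 111 on more than 1 array.

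**Figure D3:**
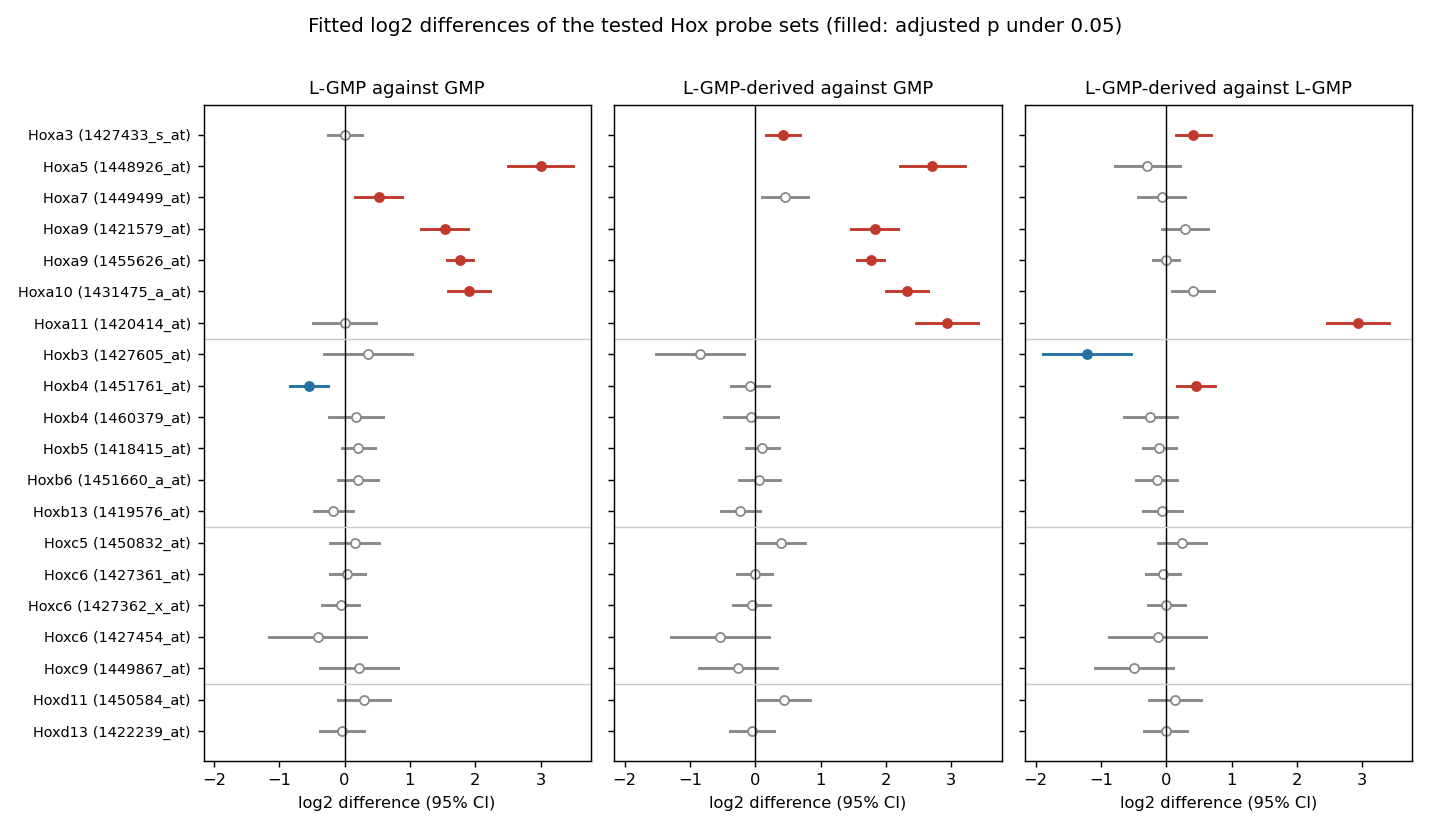
Log2 difference with its 95% interval (x axis) for the 20 tested Hox probe sets (rows) in the 3 comparisons. Intervals of Hoxa5, Hoxa9 and Hoxa10 against GMP lie well to the right of 0, and most HoxB, HoxC and HoxD intervals include it.

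In the HoxB cluster, no gene rose in either leukemic group against GMP. Hoxb4, whose protein expands blood stem cells when it is overexpressed, was read by a pair of probe sets that differed in sign in L-GMP. On 1451761_at the GMP arrays read 312, 264 and 293, the L-GMP arrays 211, 181 and 204, and the L-GMP-derived arrays 272, 307 and 240.2. The L-GMP arrays were below all others. L-GMP was 1.46-fold lower than GMP (log2 difference -0.55 ± 0.13, adjusted p = 0.0111), and L-GMP-derived cells were 1.37-fold above L-GMP (adjusted p = 0.0222). The call between the leukemic groups ended without L-GMP replicate 2 (adjusted p = 0.0841) or L-GMP-derived replicate 2 (adjusted p = 0.081). On the other probe set, 1460379_at, the arrays read 309.7, 374 and 275 in GMP, 423, 287 and 377 in L-GMP, and 361, 301 and 255 in L-GMP-derived cells. All 3 groups overlapped there, and L-GMP minus GMP was 0.17 ± 0.19 on the log2 scale (adjusted p = 0.539), with the opposite sign.

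Hoxb3, next to Hoxb4 and overlapping it in RefSeq, was lowest in the cultured cells. GMP arrays read 279, 361 and 427, L-GMP arrays 423, 387 and 554, and L-GMP-derived arrays 337, 153 and 141. Replicates 2 and 3 of the L-GMP-derived cells were below every other array, and replicate 1 lay within the range of GMP. L-GMP-derived cells were 2.32-fold below L-GMP (log2 difference -1.21 ± 0.30, adjusted p = 0.0124), and without replicate 3 of the L-GMP-derived cells the fold was 1.98 and the adjusted p 0.0519. Against GMP they were 1.81-fold lower without passing the threshold (adjusted p = 0.0659); without replicate 1 the fold was 2.38 and the call passed (adjusted p = 0.00111). L-GMP against GMP gave a log2 difference of 0.36 ± 0.30 (adjusted p = 0.436).

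The other tested HoxB genes did not pass in any comparison. Hoxb5 read 568 ± 14.1 in GMP, 659.7 ± 38.5 in L-GMP and 612 ± 60.2 in L-GMP-derived cells. Hoxb6 read 109 ± 12.2, 125 ± 11.7 and 113 ± 5.73, and Hoxb13, the most posterior, 261 ± 10.7, 233 ± 29.4 and 224 ± 27.6. Hoxb1, Hoxb2, Hoxb7 and Hoxb9 were dim. Among them Hoxb7 read 114, 92.5 and 99.4 in GMP, 82.5, 104 and 92.3 in L-GMP, and 60.4, 65.3 and 52.9 in L-GMP-derived cells. The L-GMP-derived arrays were all below the other 6. In the fit without a filter, Hoxb7 was the only one of the 17 dim probe sets that was called: it was lower in L-GMP-derived cells than in GMP (log2 difference -0.68 ± 0.10, adjusted p = 0.00749) and than in L-GMP (adjusted p = 0.0136).

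No HoxC gene passed the test in any comparison. Hoxc5 read 485 ± 104 in GMP, 532 ± 54.7 in L-GMP and 627 ± 53.8 in L-GMP-derived cells, with L-GMP-derived minus GMP at 0.39 ± 0.17 on the log2 scale (adjusted p = 0.119). Hoxc6 had 3 probe sets above the filter. They read 180.3 ± 19.0, 185 ± 8.21 and 179 ± 10.1 (1427361_at), 258 ± 26.1, 248 ± 22.3 and 248 ± 22.5 (1427362_x_at), and 163 ± 21.0, 127 ± 45.7 and 119 ± 48.7 (1427454_at) in GMP, L-GMP and L-GMP-derived cells. Hoxc9, the paralog of Hoxa9, read 129 ± 46.6, 145 ± 22.7 and 105 ± 30.1. Hoxc4, Hoxc8 and Hoxc13 were dim, and Hoxc8 and Hoxc13 were under the floor on all 9 arrays.

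In the HoxD cluster, only Hoxd11 and Hoxd13 passed the filter. Hoxd11, the paralog of Hoxa11, read 94.1 ± 23.2 in GMP, 114 ± 8.62 in L-GMP and 126 ± 11.8 in L-GMP-derived cells. L-GMP-derived minus GMP was 0.44 ± 0.18 on the log2 scale (adjusted p = 0.099), and it passed without GMP replicate 2 (adjusted p = 0.0231). Hoxd13 read 409.5 ± 75.2, 395 ± 33.1 and 391 ± 24.9, and its groups overlapped. Hoxd1, Hoxd8, Hoxd9, Hoxd10 and Hoxd12 were dim; Hoxd1 and Hoxd12 were under the floor on all 9 arrays.

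Paralogs of the same number were set side by side at the positions where HoxA genes differed most from GMP. The positions were picked by that result, and the genes at other positions are described above. At position 5, Hoxa5 rose in both leukemic groups, and Hoxb5 and Hoxc5 missed the threshold (adjusted p = 0.204 and 0.556 in L-GMP). At position 9, both Hoxa9 probe sets rose, Hoxc9 did not pass, and Hoxb9 and Hoxd9 were dim. At position 10, Hoxa10 rose and Hoxd10 was dim, at 43.3 to 93.6. At position 11, Hoxa11 rose in L-GMP-derived cells, and Hoxd11 did not pass. These are differences in calls, and the difference between paralogs itself was not tested. Hoxa10 and Hoxa11 passed the filter only through the groups where they are high. Their rises from GMP are thus built in, and the readings at positions 10 and 11 are a description.

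Hox proteins bind DNA with homeodomain partners of the TALE class, the Meis, Pbx and Pknox proteins. Of 9 such genes, 8 had a probe set and 5 were tested. In L-GMP against GMP 2 rose and 0 fell, in L-GMP-derived cells against GMP 2 rose and 0 fell, and between the leukemic groups 3 were lower in L-GMP-derived cells and 0 higher. The median log2 differences of the list were 0.37, 0.17 and -0.46. Over all tested probe sets, 13.4%, 14.0% and 16.4% were called higher and 12.6%, 10.4% and 13.5% lower in these comparisons. Meis1, the cofactor of Hoxa9, read 505 ± 36.7 in GMP, 2108 ± 176 in L-GMP and 1069.6 ± 179 in L-GMP-derived cells. It was 4.17-fold (adjusted p = 3.22e-06) and 2.10-fold (adjusted p = 0.000272) above GMP and 1.98-fold lower in L-GMP-derived cells than in L-GMP (adjusted p = 0.000379). Pbx3, which joins Hoxa9 and Meis1 on DNA, read 45.0 ± 8.49, 736 ± 60.2 and 538 ± 91.9, which is at least 11.8-fold and at least 8.54-fold above GMP (adjusted p = 7.13e-08 and 1.78e-07). As Pbx3 passed the filter through the leukemic arrays alone, its difference from GMP is built into its being tested. Its place among the 2 that rose is therefore a description. Between the leukemic groups Meis1 thus fell where Hoxa9 had the intervals given above, and whether the changes of these genes differ was not tested. Pbx3 and Pbx2 were 1.38-fold and 1.51-fold lower in L-GMP-derived cells than in L-GMP (adjusted p = 0.0251 and 0.0462). The Pbx3 call ended without L-GMP replicate 2 or 3 or L-GMP-derived replicate 1 or 3, and the Pbx2 call was kept in only 1 of the 9 fits with an array left out. Meis2 and Meis3 did not pass in any comparison.

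Among the genes that switch Hox clusters on, 13 of 18 members of the MLL complex and of its elongation partners were tested. In L-GMP against GMP 4 rose and 1 fell, in L-GMP-derived cells against GMP 1 rose and 2 fell, and between the leukemic groups 0 rose and 2 fell. The median log2 differences were 0.07, -0.08 and -0.11. Beside these counts, 13.4%, 14.0% and 16.4% of all tested probe sets were called higher and 12.6%, 10.4% and 13.5% lower. Psip1, which tethers MLL to chromatin, was 1.59-fold lower in L-GMP (adjusted p = 0.00815) and 1.57-fold lower in L-GMP-derived cells (adjusted p = 0.00964) than in GMP. Ell, an elongation factor, was 1.5-fold higher in L-GMP (adjusted p = 0.00841), and Wdr5, a core subunit of the methyltransferase, 1.36-fold (adjusted p = 0.009). Mllt10, the partner of the methyltransferase Dot1l, was 1.43-fold lower in L-GMP-derived cells than in L-GMP (adjusted p = 0.00271), and Aff1, a scaffold of the elongation complex, 1.39-fold (adjusted p = 0.00101). The calls of Mllt10 and Aff1 in L-GMP against GMP ended when any GMP or L-GMP array was left out (adjusted p up to 0.152 and 0.146). In L-GMP-derived cells against GMP, those of Wdr5 and Aff1 ended in 5 and 6 of the 9 fits with an array left out.

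Polycomb proteins, which silence Hox clusters, were tested in 16 of 21 genes. Against GMP, 1 rose and 3 fell in L-GMP, in L-GMP-derived cells against GMP 0 rose and 3 fell, and between the leukemic groups 3 rose and 3 fell. The median log2 differences were -0.06, -0.14 and -0.07. The shares over all tested probe sets were 13.4%, 14.0% and 16.4% higher and 12.6%, 10.4% and 13.5% lower. Cbx6 and Cbx7, readers of the Polycomb histone mark, were lowest in L-GMP: Cbx6 read 399 ± 39.6 in GMP, 110.3 ± 5.18 in L-GMP and 521 ± 140 in L-GMP-derived cells. It was 3.6-fold below GMP in L-GMP (adjusted p = 5.89e-05) and 4.60-fold higher in L-GMP-derived cells than in L-GMP (adjusted p = 1.9e-05). Cbx7 was 1.82-fold below GMP in L-GMP (adjusted p = 0.00354). Ezh1, a methyltransferase of the complex, was 1.75-fold lower in L-GMP (adjusted p = 0.00231) and 1.89-fold higher in L-GMP-derived cells than in L-GMP (adjusted p = 0.000928). Jarid2, which recruits the complex, moved the other way, 1.68-fold higher in L-GMP than in GMP (adjusted p = 0.00105) and 1.70-fold lower in L-GMP-derived cells than in L-GMP (adjusted p = 0.000832). Rnf2, a ubiquitin ligase of the complex, was 1.77-fold and Phc1 2.18-fold lower in L-GMP-derived cells than in GMP (adjusted p = 0.00405 and 0.00318), and Rnf2 was 1.87-fold lower there than in L-GMP (adjusted p = 0.00183). Ezh2 was 1.28-fold lower in L-GMP-derived cells than in GMP (adjusted p = 0.0357). That call was lost with GMP replicate 1 or 3 or L-GMP-derived replicate 2 or 3 left out.

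Cdx factors and retinoic acid act upstream of Hox genes in the embryo. Of 14 genes of this list 8 were tested, and 0 were called in any of the 3 comparisons in limma; without adjustment, 1 was higher in L-GMP than in GMP and 1 lower in L-GMP-derived cells than in L-GMP at p under 0.05. Cdx2 and Cdx4, which activate Hox genes in leukemia models, were dim, with group means of 72.1 to 81.9 and 15.9 to 29.9. The largest changes of the list were in Rarg, a retinoic acid receptor, which was 0.38 ± 0.14 lower on the log2 scale in L-GMP-derived cells than in L-GMP (adjusted p = 0.0611), and in Rxrb, its dimer partner, which was 0.33 ± 0.14 above GMP in L-GMP (adjusted p = 0.11). Of 10 homeobox genes related to the Hox genes, such as Evx1 at the end of the HoxA cluster, Gsx2 and Pdx1 were tested and 0 were called; 0 passed at an unadjusted p under 0.05 too.

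Genes that lie beside the clusters were read too. The 5 nearest protein-coding genes on each side of each cluster in RefSeq gave 40 genes, of which 25 were tested. Beside HoxA, 7 were tested; 3 rose and 1 fell in L-GMP against GMP, and 2 rose and 1 fell in L-GMP-derived cells against GMP, where 13.4% and 14.0% of all tested probe sets were higher and 12.6% and 10.4% lower. The largest fold beside HoxA was 1.6 in L-GMP and 1.63 in L-GMP-derived cells, smaller than those of Hoxa5, Hoxa9 and Hoxa10. It was larger than those of Hoxa7 (1.44 and 1.36) and Hoxa3 (1.01 and 1.34). Skap2, which encodes a signalling adaptor of white blood cells, was 1.5-fold (adjusted p = 0.000155) and 1.40-fold (adjusted p = 0.000594) above GMP. Hnrnpa2b1, an RNA-binding protein gene, was 1.29-fold (adjusted p = 0.031) and 1.57-fold (adjusted p = 0.00183) above it. Tax1bp1 was 1.6-fold higher in L-GMP (adjusted p = 0.0323), and Snx10 was 1.59-fold and 1.63-fold lower (adjusted p = 0.00614 and 0.005). The Tax1bp1 call ended without any of the 6 GMP and L-GMP arrays, and that of Hnrnpa2b1 in L-GMP without L-GMP replicate 1 or 3 or GMP replicate 2 or 3. Cbx3, Nfe2l3 and Hibadh did not pass, and Evx1, the nearest gene past Hoxa13, was dim. Jazf1 and Creb5 had no probe set of a single symbol.

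**Figure D4:**
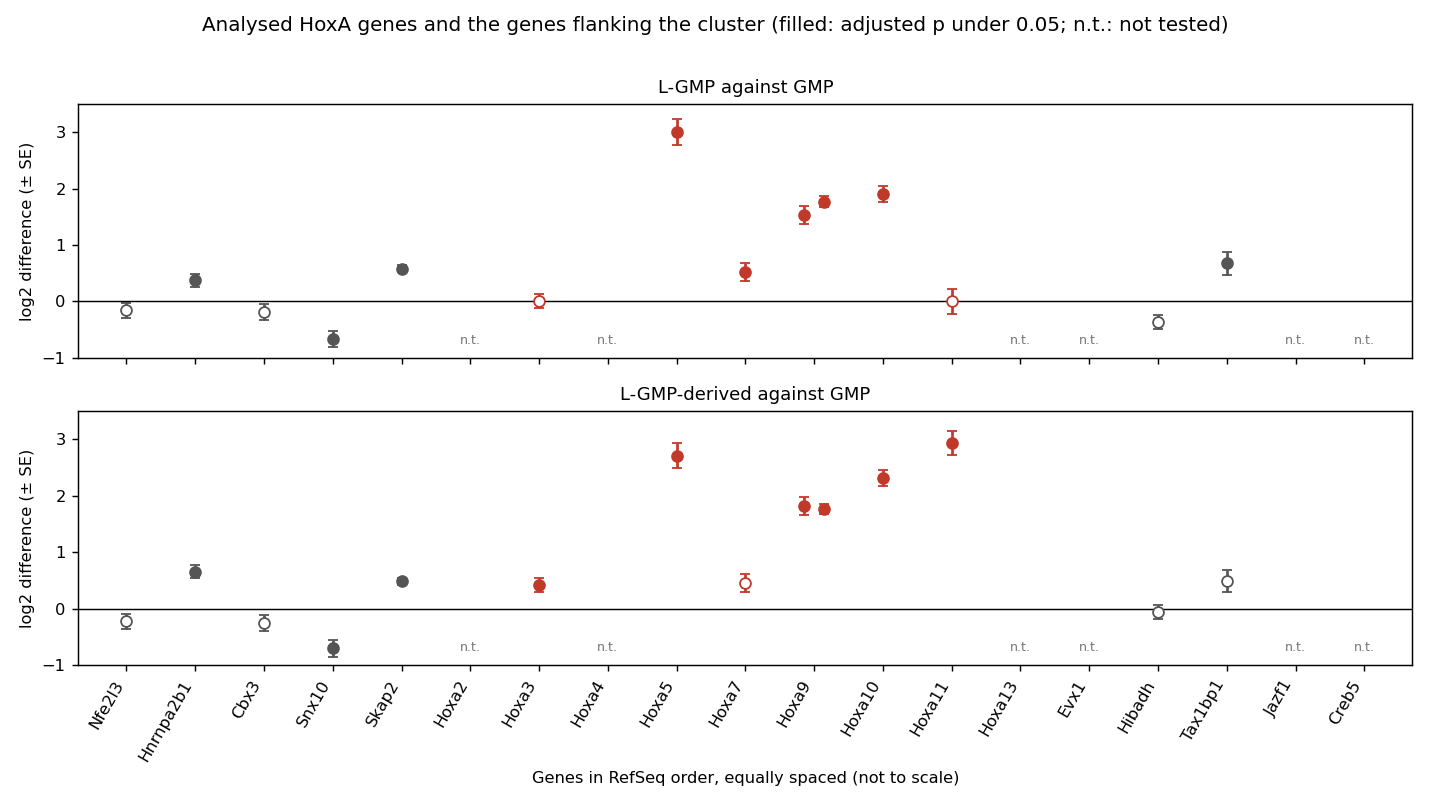
Log2 difference from GMP of the analysed HoxA genes and the 5 protein-coding genes on each side in chromosomal order, evenly spaced, for L-GMP and L-GMP-derived cells. The genes beside the cluster stay within 1.63-fold of GMP, while Hoxa5, Hoxa9 and Hoxa10 lie from 2.89-fold to 8.0-fold above it. Hoxa7 (1.44-fold and 1.36-fold) and Hoxa3 (1.01-fold and 1.34-fold) lie within the range of the genes beside the cluster. The Hoxa10 folds are bounds at the floor, and its difference from GMP is built into its being tested. Points are fitted values with their SE, filled where the adjusted p is under 0.05, and n.t. marks genes not tested.

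Beside the HoxB cluster 6 neighbours were tested. The shares over all tested probe sets given for the HoxA neighbours apply here and beside HoxC and HoxD. Against GMP, 0 rose in L-GMP and Cbx1 fell, by 1.25-fold, a call that ended without L-GMP replicate 1 or 3 or GMP replicate 1 or 3 (adjusted p up to 0.0621). In L-GMP-derived cells against GMP 4 rose, Atp5g1 by 1.40-fold, Ube2z by 1.6-fold, Snf8 by 1.41-fold and Nfe2l1 by 1.51-fold, and Snx11 did not pass. The Ube2z call ended without L-GMP-derived replicate 2 or 3 or GMP replicate 1 or 3. Calcoco2 and Copz2 were dim, and Ttll6 and Skap1 had no probe set of a single symbol.

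Beside the HoxC cluster 8 neighbours were tested. Nfe2, a transcription factor of blood cells, was 1.56-fold and 1.6-fold higher in L-GMP and L-GMP-derived cells than in GMP (adjusted p = 0.00169 and 0.00133), and Copz1 1.63-fold and 1.67-fold (adjusted p = 0.011 and 0.00892). The Copz1 call in L-GMP ended without GMP replicate 3 (adjusted p = 0.057). Hnrnpa1 was 1.36-fold lower in L-GMP-derived cells than in GMP, a call that ended without any 1 of the GMP arrays or L-GMP-derived replicate 3 (adjusted p up to 0.128). Tarbp2 was higher in L-GMP-derived cells than in L-GMP by 1.55-fold, a call that ended without L-GMP replicate 2 or 3 or L-GMP-derived replicate 2 (adjusted p up to 0.0629). Atp5g2, Atf7, Npff and Cbx5 did not pass, and Calcoco1 and Smug1 had no probe set of a single symbol.

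Beside the HoxD cluster 4 neighbours were tested. Nfe2l2, the master regulator of antioxidant genes, was 1.48-fold lower in L-GMP and 1.77-fold lower in L-GMP-derived cells than in GMP (adjusted p = 0.0413 and 0.00731). Atp5g3 was 1.09-fold lower in L-GMP (adjusted p = 0.0347). Both calls in L-GMP ended in at least 5 of the 9 fits with an array left out. Atf2 and Mtx2 did not pass, Evx2 and Chn1 were dim, and Lnpk, Gm50595, Hnrnpa3 and Agps had no probe set of a single symbol. The largest folds beside HoxB, HoxC and HoxD were 1.25, 1.63 and 1.48 in L-GMP and 1.6, 1.67 and 1.77 in L-GMP-derived cells against GMP, a range that includes the largest folds beside HoxA.

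Of 11 genes known as targets of Hoxa9 or Meis1, 8 were tested. In L-GMP against GMP 3 rose and 2 fell, in L-GMP-derived cells against GMP 2 rose and 2 fell, and between the leukemic groups 1 rose and 3 fell. The median log2 differences were 0.03, -0.11 and -0.25. Ccnd3, a G1 cyclin, was 2.41-fold above GMP in L-GMP and 2.34-fold in L-GMP-derived cells (adjusted p = 0.0023 and 0.00317). Pim1, a survival kinase, read 1531 ± 319 in GMP, 374 ± 73.3 in L-GMP and 3658 ± 247 in L-GMP-derived cells, 4.09-fold lower in the former (adjusted p = 2.62e-05) and 2.42-fold higher in the latter (adjusted p = 0.000605) than in GMP. Sox4, a stem cell transcription factor, was 2.12-fold and 3.13-fold lower (adjusted p = 0.0468 and 0.00734), and its call in L-GMP ended when any GMP or L-GMP array was left out. Lmo2, a transcription cofactor of stem cells, was 1.78-fold higher in L-GMP (adjusted p = 0.00239). Id2, an inhibitor of helix-loop-helix factors, was 3.31-fold higher in L-GMP than in GMP (adjusted p = 0.0034) and at least 4.48-fold lower in L-GMP-derived cells than in L-GMP (adjusted p = 0.00079). Myb, the progenitor transcription factor, was 1.17-fold lower in L-GMP-derived cells than in GMP (adjusted p = 0.00262). Of all tested probe sets, 13.4%, 14.0% and 16.4% were called higher and 12.6%, 10.4% and 13.5% lower in the 3 comparisons, so calls in both directions are not particular to this list.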

How the data were processed

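Mouse myeloid cells were read on Affymetrix expression arrays, 3 for each of GMP, L-GMP and L-GMP-derived cells. GMP and L-GMP came from bone marrow, and the L-GMP-derived cells were taken as grown in culture. Groups were taken from titles, source labels and design text. The authors deposited 1 linear intensity per probe set and array. The tool that the submitters' processing notes name is MAS5, version 5; the sources used here do not say how background was corrected, probes were summarised and arrays scaled. Of 204210 values, 1917 were negative, and the step that made them negative is not stated. The authors' scaling was kept. After leaving out 64 control probe sets, log2 of the floored signals was fitted over all 9 arrays, with group as the only term and 6 residual degrees of freedom, in limma 3.58.1 (R 4.3.3; eBayes moderation with the trend option), tested on simulated data. Floor, filter and threshold stand in the report. A gene of a context list was read by the probe set brightest on average in log2 signal.

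Platform symbols named the probe sets: 20393 had 1 symbol, 691 several and 1606 none; all 37 Hox probe sets matched RefSeq by Entrez ID. Promoters are RefSeq's, on mouse build GRCm38.p6, and the deposited data name no genome build. Every Hox gene with a probe set was named, those called in a comparison with every array; of each context list, up to 4 called members with the largest change, and all genes beside the clusters. Members and lists were chosen with earlier results of these data known. Alternatives were quantile normalization, floors at the 10th and 40th percentile, no filter and a 60th percentile filter, no trend, only the 6 arrays compared, no _x_at or _s_at probe sets, a minimum fold of 1.2 (treat), a replicate block and each array left out; for the lists, the mean over probe sets and, added after seeing the data, each array left out.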

Additional observations from a re-analysis of the deposited data

Results flagged for a closer look

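The effect against GMP differed between L-GMP and L-GMP-derived cells in 4 Hox probe sets, tested as the direct contrast of the leukemic groups in limma. The log2 difference, L-GMP-derived minus L-GMP, was 2.94 for Hoxa11 (1420414_at), higher on 3 of 3 L-GMP-derived arrays than on any L-GMP array. It was 0.41 for Hoxa3 (1427433_s_at) and 0.46 for Hoxb4 (1451761_at), each with all 3 L-GMP-derived arrays above all L-GMP arrays, and -1.21 for Hoxb3 (1427605_at), with all 3 below. Hoxa11 passed the filter through the L-GMP-derived arrays alone, so its contrast with L-GMP is built into its being tested. The Hoxa11 call was kept under each of the 19 other settings, which is no separate support for it, and the other 3 calls were lost under at least 2.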

How the results depend on the processing

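Calls of Hoxa5, both Hoxa9 probe sets and Hoxa10 against GMP in both leukemic groups, and of Hoxa11 in L-GMP-derived cells against both other groups, were kept under all 19 other settings (those of Hoxa10 against GMP and of Hoxa11 are built into the filter), and no called Hox difference changed sign. In L-GMP against GMP 6 Hox probe sets were called, and 4 to 6 under the alternatives; in L-GMP-derived cells against GMP 6 were called, and 5 to 7. Between the leukemic groups 4 were called, and 2 with only the 6 arrays compared, 2 with a minimum fold of 1.2 and 2 with the replicate block. Leaving out 1 array gave 2 to 6 there, with 2 without L-GMP replicate 2, L-GMP-derived replicate 2 or L-GMP-derived replicate 3, and 6 without L-GMP-derived replicate 1. A minimum fold of 1.2 ended the calls of Hoxa7, Hoxa3 and Hoxb4. Without a filter, Hoxa7 in L-GMP (adjusted p = 0.0808) and Hoxb3 between the leukemic groups (0.0673) were not called; more probe sets were then tested. Quantile normalization moved the median of all probe sets by at most 0.0174. The called genes of the context lists numbered 34, 36 and 32, and 31, 34 and 31 with the mean over probe sets. These counts describe only the change of setting, as the numbers tested are given list by list above. Over all tested probe sets, 13.4%, 14.0% and 16.4% were called higher and 12.6%, 10.4% and 13.5% lower. Deviations from the group means of same-numbered L-GMP and L-GMP-derived arrays correlated at -0.309, -0.133 and -0.27. For replicates 2 and 3, L-GMP and GMP arrays gave 0.17 and -0.129, and L-GMP-derived and GMP arrays -0.276 and -0.019. These few values cannot settle whether the replicate numbers pair the arrays. The GMP array without a number was taken to pair with no other array. With the replicate number as a block, 4, 5 and 2 Hox probe sets were called in the 3 comparisons. Where a group lies at the floor (Hoxa10 and Hoxa11), the signal over background limits the fold to a bound.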

Other observations

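Each Hox cluster has a gene of the Nfe2 family of leucine zipper factors among its 5 nearest neighbours on one side, and these paralogs went different ways. Nfe2, beside HoxC, read 953 ± 29.5 in GMP, 1488 ± 122 in L-GMP and 1535 ± 169 in L-GMP-derived cells. Nfe2l2, beside HoxD, read 987 ± 43.6, 672 ± 95.8 and 568 ± 149. Nfe2l1, beside HoxB, read 220.3 ± 14.3, 188 ± 8.71 and 332 ± 14.2, and was 1.77-fold higher in L-GMP-derived cells than in L-GMP (limma adjusted p = 0.000299). Nfe2l3, beside HoxA, did not pass in any comparison (adjusted p = 0.433, 0.25 and 0.746). The family was picked out after its values were seen.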
